A study of Homo sapiens with 4 samples.

Results

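The miR-183, miR-96 and miR-182 cluster is a group of 3 small regulatory RNAs cut from neighbouring hairpins, and its members were followed here as their 5′ arms, listed as hsa-miR-183-5p, hsa-miR-96-5p and hsa-miR-182-5p. They were taken by name from the tables of all 4 exosome libraries, where they are 3 of 2588 listed mature miRNAs, and the rule that picks them uses their names and no measured value. Exosomes, membrane-bound particles shed by cells and labelled here as secreted microvesicles, were purified by differential ultracentrifugation from a pair of human colon cancer lines, HCT15 and HCT29 in the labels. The parental group of each line is its cells kept in complete RPMI, with the vesicles collected in that medium after exosome depletion. The sphere group of each line is its floating colonies, grown for 3 weeks in DMEM/F12 with N2 supplements, 10 ng/ml bFGF and 10 ng/ml EGF, a defined medium used to enrich for stem-like cells. The design text gives as the aim a search for miRNAs central to malignancy of cancer stem cells. Every group has 1 library, 4 in all, no genetic change is named in any, and the labels do not say how many cultures each library came from. The growth text of both HCT29 samples names HCT15, so the line behind those libraries is not settled by the labels.

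The 3 miRNAs are known as one of the most conserved miRNA clusters of animals, read from a single primary transcript that the enzymes Drosha and Dicer cut into separate hairpins and then into mature strands. Cutting, strand choice, stability and, in vesicles, export are known steps at which mature strands of one transcript can come to differ in amount. The cluster is best known from sensory cells of the eye, ear and nose, where changes in the miR-96 seed cause hearing loss, and its members are often raised in epithelial tumours, including those of the colon. FOXO1, a transcription factor that restrains cell growth, is a known target of the cluster.

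The mature sequences are shown because their seeds, bases 2 to 8 in capitals, set the targets and show how close the members are. They come from RefSeq on GRCh38.p14, where all 3 members matched.
miR-183-5p: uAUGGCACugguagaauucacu
miR-96-5p: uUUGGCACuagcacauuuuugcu
miR-182-5p: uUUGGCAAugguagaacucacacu
miR-1271-5p: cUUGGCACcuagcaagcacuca
No seed is shared between members. The seed of miR-96-5p differs at 1 of 7 bases from that of miR-183-5p and at 1 of 7 from that of miR-182-5p, while the seeds of miR-182-5p and miR-183-5p differ at 2. Aligned from the 5′ end without gaps, miR-182-5p and miR-183-5p have the same base at 18 of 22 positions, against 13 of 22 for miR-183-5p with miR-96-5p and 12 of 23 for miR-182-5p with miR-96-5p. miR-1271-5p, from a separate hairpin on chromosome 5, has the same seed as miR-96-5p and was the sole other listed miRNA found with a member's seed. In HCT15 it had 0 reads in parental and 6 in sphere exosomes, and in HCT29 it had 1 and 0.

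On the reverse strand of chromosome 7 (GRCh38) the order of transcription is MIR183, MIR96 and MIR182. The hairpin of MIR183 spans 129774905 to 129775014, that of MIR96 spans 129774692 to 129774769 and that of MIR182 spans 129770383 to 129770492. MIR183 and MIR96 are 135 bases apart, and MIR182 begins 4199 bases further on, so the first pair sits close together at the front of a locus of 4632 bases. GENCODE 29 places no other gene over any of the hairpins. The nearest protein-coding genes are NRF1, 13301 bases away, and UBE2H, 55718 bases away.

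Levels are RPM, which sets the reads of a miRNA against the total of its library, and each nonzero value gave back a whole number of reads. The implied totals run from 110666 reads in HCT29 parental to 530920 in HCT29 sphere, and 77.8 to 89.9% of those reads fall on listed miRNAs. Intervals are exact 95% intervals on the reads and cover counting error only, since reads amplified by PCR are not independent molecules. With 1 library a group, differences between single libraries have no replicate check and no p-value. All 9 miRNAs listed as markers of gut epithelium were found in each library, with a sum of 15043 RPM (parental) and 22915 RPM (sphere) in HCT15, and 98946 RPM (parental) and 132409.8 RPM (sphere) in HCT29. The sums of blood, neural and endothelial markers were lower in spheres than in parental exosomes of both lines, and their values stand beside the sphere comparisons. The liver marker miR-122-5p had 1 library above 0, at 9.04 RPM.

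hsa-miR-183-5p, the first member of the transcript, had its lowest level in HCT15 parental exosomes and its highest in HCT29 parental exosomes. In HCT15 its level was 1732 RPM in the parental library (1526 to 1959, from 254 reads) and 7992 RPM in the sphere library (7736 to 8254, from 3686 reads). In HCT29 it was 17919 RPM in the parental library (17139 to 18725, from 1983 reads) and 7786 RPM in the sphere library (7551 to 8028, from 4134 reads). The parental libraries lie at both ends of the order and the sphere libraries lie between them, with intervals that overlap each other and no other library. Ranked by RPM among all listed miRNAs, miR-183-5p stood 47th and 20th in the parental and sphere libraries of HCT15, and 11th and 16th in those of HCT29.

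hsa-miR-96-5p, the second member, was scarce in all 4 libraries. In HCT15 its level was 40.9 RPM in the parental library (15.0 to 89.1, from 6 reads) and 189 RPM in the sphere library (151 to 233, from 87 reads). In HCT29 it was 145 RPM in the parental library (82.6 to 235, from 16 reads) and 37.7 RPM in the sphere library (23.0 to 58.2, from 20 reads). HCT15 sphere and HCT29 parental are the high libraries, and their intervals overlap. The intervals of HCT29 sphere and HCT15 parental also overlap, and with 6 reads the upper limit of HCT15 parental passes the lower limit of HCT29 parental.

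hsa-miR-182-5p, the last member, was the most abundant of the 3 in all 4 libraries and ranked between 6 and 9 among all listed miRNAs. In HCT15 its level was 26131 RPM in the parental library (25310 to 26971, from 3832 reads) and 18799.9 RPM in the sphere library (18406 to 19199.8, from 8671 reads). In HCT29 it was 19654 RPM in the parental library (18836 to 20497, from 2175 reads) and 43534 RPM in the sphere library (42974 to 44099, from 23113 reads). HCT29 sphere stands above the other libraries, and the intervals of HCT15 sphere and HCT29 parental overlap. Its highest level was 2.32 times its lowest, a narrower range than the 10.3 times of miR-183-5p and the 5.01 times of miR-96-5p.

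**Figure D1:**
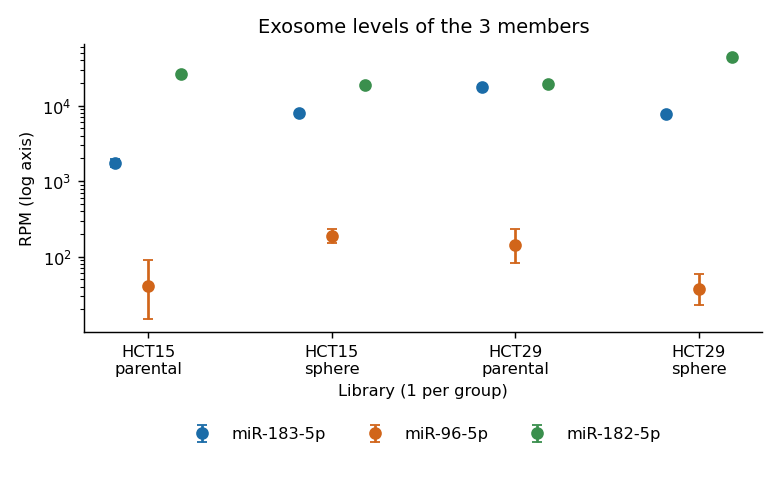
Level of each member in RPM (log axis) in the 4 libraries, 1 library per group, with points for the deposited value and bars for the exact 95% counting interval. miR-182-5p stays between 18799.9 and 43534 RPM, miR-183-5p is lowest in HCT15 parental at 1732 RPM, and miR-96-5p lies below 235 RPM in all libraries, bars included.

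Summed over the 3 members, the cluster held 3.58% of the listed miRNA reads of HCT15 parental exosomes (3.48 to 3.69) and 3.00% of those of HCT15 spheres (2.95 to 3.06). In HCT29 it held 4.32% in parental (4.19 to 4.45) and 5.92% in sphere exosomes (5.85 to 5.99). As RPM the sums were 27904 and 26980.3 in HCT15, and 37717 and 51358 in HCT29. With RPM as deposited, the sphere over parental ratio of the sum was 0.967 in HCT15 (0.933 to 1.00) and 1.36 in HCT29 (1.32 to 1.41). These ratios rest on the scaling: with TMM, a scaling meant to centre the bulk of miRNAs, they were 1.48 and 3.06. Against listed miRNA reads they were 0.838 and 1.37. TMM did not centre the miRNAs with at least 10 reads in either library. Their median sphere over parental log2 ratio was 0.49 in HCT15 and 0.58 in HCT29 with TMM, against -0.12 and -0.57 as deposited. The makeup of the sum does not rest on the scaling. miR-183-5p made up 6.21% of the cluster reads in HCT15 parental (5.49 to 6.99) and 29.6% in HCT15 sphere (28.8 to 30.4). In HCT29 the order of the cultures was the other way round, with 47.5% in parental (46.0 to 49.0) and 15.2% in sphere (14.7 to 15.6). miR-182-5p took nearly all the rest, at 93.6% of HCT15 parental and 69.7% of HCT15 sphere cluster reads, and 52.1% and 84.8% for those cultures of HCT29. miR-96-5p never passed 0.699% of the cluster reads, its share in HCT15 sphere.

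Ratios between members within a library do not depend on how the library was scaled, and the kit named in the labels is the same for all 4 libraries. miR-182-5p outnumbered miR-183-5p by 15.1 to 1 in HCT15 parental (13.3 to 17.2) and by 2.35 to 1 in HCT15 sphere (2.26 to 2.45). The balance in the sphere library was thus 6.41-fold lower than in the parental one (5.61 to 7.35). In HCT29 the same ratio was 1.10 in parental (1.03 to 1.17) and 5.59 in sphere (5.41 to 5.78), which is 5.10-fold higher in spheres (4.75 to 5.47). The sphere over parental differences in this balance therefore point in opposite directions in the lines, with intervals that exclude 1 in each. How often the balance of other miRNA pairs does so was not counted. Between the parental libraries the ratio was 13.8-fold lower in HCT29 (11.9 to 15.9), and between the sphere libraries it was 2.38-fold higher in HCT29 (2.26 to 2.50).

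miR-183-5p and miR-96-5p, whose hairpins are the close pair, had balances that lay nearer to each other in the cultures of a line. In HCT15, miR-183-5p had 42.3 reads per read of miR-96-5p in the parental library (19.2 to 116) and 42.4 in the sphere library (34.3 to 53.0). In HCT29 it had 124 in the parental library (76.1 to 217) and 207 in the sphere library (134 to 339). The sphere over parental difference in this ratio was 1.00-fold in HCT15 (0.354 to 2.30) and 1.67-fold in HCT29 (0.806 to 3.40). The intervals are wide, since miR-96-5p had between 6 and 87 reads. Both include 1 and also 2, so a ratio 2-fold higher in spheres was not excluded in either line. A ratio 2-fold lower in spheres lay inside the HCT15 interval and outside the HCT29 one. Between the lines the ratio was 2.93-fold higher in HCT29 for parental libraries (0.929 to 7.96) and 4.88-fold higher for sphere libraries (2.97 to 8.39).

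The ratio of miR-182-5p to miR-96-5p followed that of miR-182-5p to miR-183-5p within each line. In HCT15 it was 639 in the parental library (293 to 1741) and 99.7 in the sphere library (80.7 to 125). In HCT29 it was 136 in the parental library (83.5 to 238) and 1156 in the sphere library (748 to 1892). HCT15 spheres were thus 6.41-fold lower in this ratio (2.82 to 18.0), and in HCT29 it was 8.50-fold higher in spheres (4.11 to 17.3). Within each line, then, miR-182-5p was the member that parted from the other pair.

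**Figure D2:**
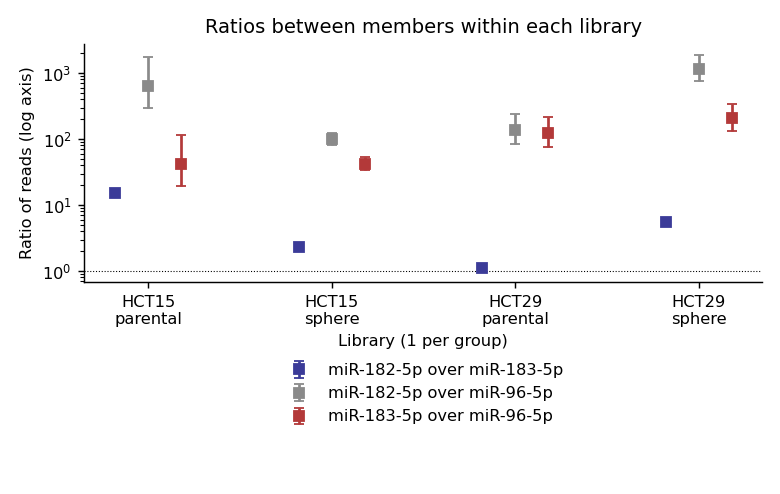
Ratio of the reads of one member to those of another within each library (log axis), with bars for the exact 95% interval and a dotted line at equal reads. The ratio of miR-182-5p to miR-183-5p is 15.1 (parental) and 2.35 (sphere) in HCT15, and 1.10 (parental) and 5.59 (sphere) in HCT29, while that of miR-183-5p to miR-96-5p is 42.3 and 42.4 in HCT15.

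HCT15 sphere and parental exosomes were compared to ask how the members differ between the cultures of that line. In each line the cultures differ in growth as colonies, in medium and in read depth, which cannot be told apart here. miR-183-5p was 4.61-fold higher in sphere exosomes (4.06 to 5.26) and miR-96-5p was 4.61-fold higher as well (2.03 to 12.9). miR-182-5p had a ratio of 0.719 (0.693 to 0.748), within 2-fold. Thus 2 of 3 members were at least 2-fold higher, beside 32.1% of the 305 miRNAs with at least 10 reads in either library, and 0 of 3 were at least 2-fold lower, beside 28.2%. The median log2 ratio of the members was 2.18 and that of all 305 was -0.12. TMM scaling moved the median of all 305 from -0.12 to 0.49. It turned the log2 ratio of miR-182-5p from -0.47 to 0.14. It also moved that of miR-183-5p from 2.21 to 2.82 and that of miR-96-5p from 2.18 to 2.78. In these bulk libraries, vesicles from more cells of one kind and more of a miRNA per vesicle cannot be told apart.

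HCT29 spheres stood to their parental cells the other way for all 3 members with RPM as deposited. miR-183-5p was 2.30-fold lower in sphere exosomes (2.18 to 2.43), miR-96-5p was 3.84-fold lower (1.86 to 7.80) and miR-182-5p was 2.22-fold higher (2.12 to 2.32). At least 2-fold lower were 2 of 3 members, beside 36.2% of the 224 miRNAs with at least 10 reads in either library, and at least 2-fold higher was 1 of 3, beside 23.2%. The median log2 ratio was -1.20 over the members and -0.57 over all 224. These levels depend on the scaling. TMM moved the median of all 224 miRNAs from -0.57 to 0.58. The log2 ratio was then -0.033 for miR-183-5p, -0.76 for miR-96-5p and 2.32 for miR-182-5p, so that 0 of 3 were at least 2-fold lower.

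The sphere over parental ratio of miR-183-5p was 10.6-fold smaller in HCT29 than in HCT15 (9.25 to 12.2), that of miR-96-5p was 17.7-fold smaller (6.15 to 50.9) and that of miR-182-5p was 3.08-fold larger (2.90 to 3.26). These intervals come from reads alone, and the difference between the lines was not tested, since each line has 1 library per culture. Opposite signs in the lines are common in these libraries: they were seen in 93 of the 188 miRNAs measured in both lines, or 49.5%. At least 2-fold higher in HCT15 spheres and at least 2-fold lower in HCT29 spheres, as for miR-183-5p and miR-96-5p, were 18 of 188, or 9.57%. Below 1 in HCT15 and above 1 in HCT29, as for miR-182-5p, were 44 of 188, or 23.4%. With TMM these became 10 and 56 of 188, and no member was in either class. With DESeq2 size factors they were 12, with miR-96-5p alone of the members, and 51, without miR-182-5p.

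Markers of other cell types also differed between the cultures. The fibroblast and smooth muscle markers went the same way as miR-183-5p and miR-96-5p, with a sum of 1180 RPM (parental) and 4479 RPM (sphere) in HCT15, and 1473 RPM (parental) and 181 RPM (sphere) in HCT29. Of the 5 markers 3, 5, 3 and 2 were found in those libraries, and miR-199a-5p and miR-214-3p were at 0 in all but HCT15 sphere. The 7 blood markers summed to 4023 RPM (parental) and 152 RPM (sphere) in HCT15, and to 1645 RPM (parental) and 360 RPM (sphere) in HCT29. Blood markers were found for 6 and 4 of the 7 in HCT15 and for 7 and 4 in HCT29. The 2 endothelial markers, found in all 4 libraries, went from 934 to 158 RPM between the parental and sphere exosomes of HCT15, and from 849 to 450 RPM in HCT29. The 5 neural markers went from 2264 to 434 RPM in HCT15 and from 325 to 192 RPM in HCT29, with 5 and 4 found in HCT15 and 1 and 2 in HCT29. miR-124-3p was at 0 outside HCT15 parental exosomes, and miR-9-5p was at 0 in HCT29. The gut epithelial list was mixed: 5 of 9 were higher and 4 lower in HCT15 spheres, and 3 were higher and 6 lower in HCT29 spheres. Its sum in HCT29 sphere exosomes is mostly miR-192-5p (75265.6 RPM) and miR-375 (45016 RPM). Singled out after their values were seen, miR-200a-3p, miR-141-3p and miR-194-5p of the gut epithelial list went the same way as miR-183-5p and miR-96-5p. miR-200a-3p was at 300.04 RPM (parental) and 1147 RPM (sphere) in HCT15, and at 6732 RPM (parental) and 565 RPM (sphere) in HCT29. miR-141-3p was at 996 RPM (parental) and 10041 RPM (sphere) in HCT15, and at 8449 RPM (parental) and 2675 RPM (sphere) in HCT29. miR-194-5p was at 61.4 RPM (parental) and 119 RPM (sphere) in HCT15, and at 1563 RPM (parental) and 1247 RPM (sphere) in HCT29. Of the rest of that list, miR-200b-3p, miR-200c-3p and miR-429 were lower in spheres of both lines. miR-192-5p and miR-215-5p were higher in spheres of both lines, and miR-375 was lower in HCT15 spheres and higher in HCT29 spheres. The part of these markers in the members' differences was not tested.

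Between the parental cultures, the lines were compared to ask how far the members differ without spheres. miR-183-5p was 10.3-fold higher in HCT29 (9.07 to 11.8), miR-96-5p 3.53-fold higher (1.31 to 11.03), and miR-182-5p had a ratio of 0.752 (0.713 to 0.793). At least 2-fold higher were 2 of 3 members, beside 22.8% of 224 miRNAs, and 0 of 3 were at least 2-fold lower, beside 46.4%. The median log2 ratio was 1.80 over the members and -0.84 over all 224. Between the sphere cultures, miR-183-5p had a ratio of 0.974 (0.932 to 1.02), miR-96-5p was 5.01-fold lower in HCT29 (3.05 to 8.60) and miR-182-5p was 2.32-fold higher (2.26 to 2.37). Here 1 of 3 members was at least 2-fold higher, beside 25.2% of 325 miRNAs, and 1 of 3 at least 2-fold lower, beside 56% of them. TMM scaling turned the log2 ratio of miR-183-5p from -0.038 to 0.77 in this comparison, and moved that of miR-96-5p from -2.29 to -1.50 and that of miR-182-5p from 1.21 to 2.02. The 4 comparisons share libraries with each other and are not independent.

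**Figure D3:**
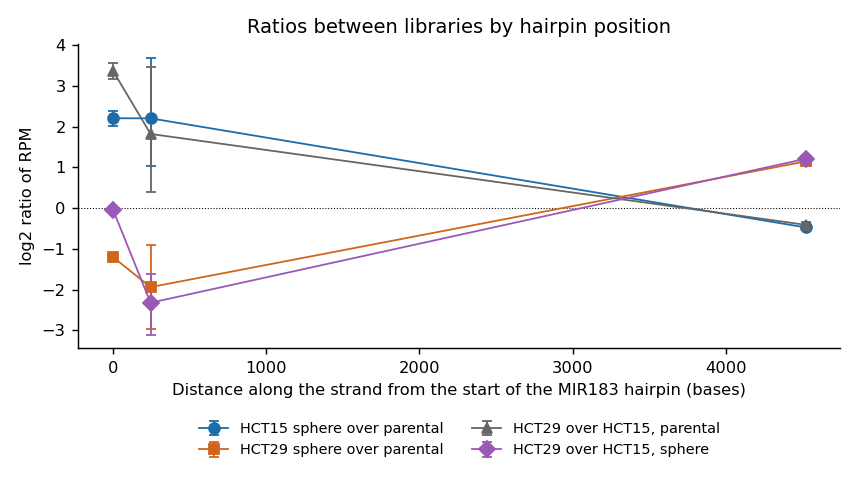
Ratio between libraries on the log2 scale for each member, placed by the distance in bases of its hairpin from the start of the MIR183 hairpin, with bars for the exact 95% interval and 1 line per comparison. Lines join the members of a comparison, and for sphere over parental in each line the close pair MIR183 and MIR96 lies on one side of 0 while MIR182, 4522 bases along, lies on the other. With TMM scaling miR-182-5p moves to 0.14 in HCT15, the same side as the pair, and miR-183-5p moves to -0.033 in HCT29.

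**Figure D4:**
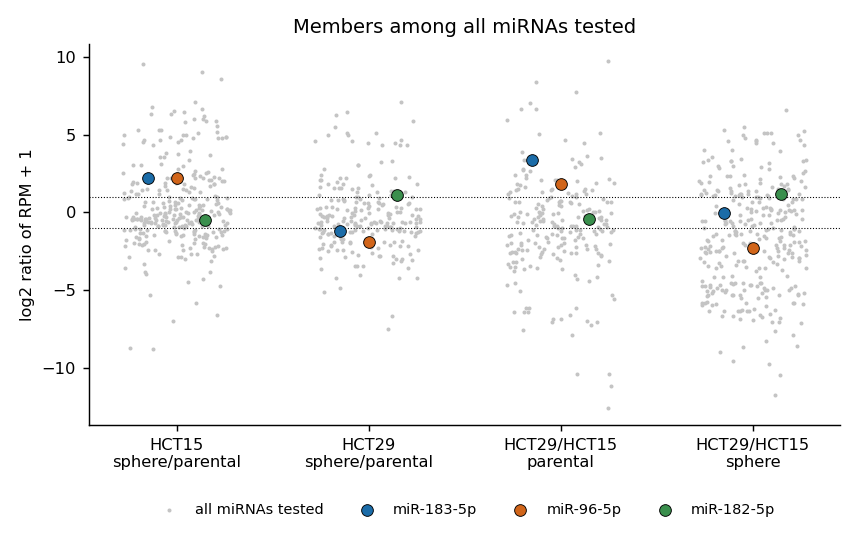
log2 ratio of RPM + 1 for every miRNA with at least 10 reads in either library of a comparison (grey points, spread sideways for clarity) and for the 3 members (coloured points), with dotted lines at 2-fold. The members lie within the range of the other miRNAs in all 4 comparisons, and in HCT29 spheres over parental they run from -1.91 to 1.15.

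With the lines serving as replicates of each culture, no member passed a test over all 4 libraries. limma on log2(RPM + 1), fitting culture beside line, with Benjamini-Hochberg adjustment over 222 miRNAs, gave a sphere minus parental difference of 0.50 for miR-183-5p (SE 1.24, adjusted p = 0.968), which was higher in 1 of 2 lines. For miR-96-5p the difference was 0.13 (SE 1.28, adjusted p = 0.970) and for miR-182-5p it was 0.34 (SE 1.11, adjusted p = 0.968), each higher in 1 of 2 lines with RPM as deposited. With TMM, miR-182-5p was higher in spheres of both lines, at 0.14 in HCT15 and 2.32 in HCT29. Of the 222 miRNAs 0 passed in either direction (0%), with 12 at an unadjusted p under 0.05, while edgeR passed 0, with 3 unadjusted, and DESeq2 passed 1, with 10 unadjusted. Over all fits tried the adjusted p ranged from 0.851 to 0.999 for miR-183-5p, from 0.963 to 0.999 for miR-96-5p and from 0.898 to 0.999 for miR-182-5p. With 1 residual degree of freedom this design can find large differences that both lines share, and a p that misses the threshold does not show that the levels were equal.

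In the same limma fit HCT29 minus HCT15 was 1.67 for miR-183-5p (SE 1.24, adjusted p = 0.457), higher in 1 of 2 cultures with RPM as deposited. Between the sphere libraries the log2 ratio of miR-183-5p was -0.038, against 0.77 with TMM and 0.66 with DESeq2 size factors. HCT29 minus HCT15 was -0.25 for miR-96-5p (SE 1.28, adjusted p = 0.935) and 0.40 for miR-182-5p (SE 1.11, adjusted p = 0.874), each also higher in 1 of 2 cultures. No member passed, beside 3.6% of the 222 miRNAs higher and 9.01% lower in HCT29. Over all fits tried the adjusted p ranged from 0.192 to 0.795 for miR-183-5p, from 0.906 to 1.000 for miR-96-5p and from 0.676 to 0.884 for miR-182-5p.

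The other strand of each hairpin, the 3′ arm, was rare. miR-183-3p had 10 reads in parental and 17 in sphere exosomes of HCT15, and 4 and 5 in those of HCT29. miR-182-3p had 2 reads in HCT15 sphere and 0 in the other libraries, and miR-96-3p had 0 in all 4. A count of 0, taken as 3 reads, allows up to 20.5 RPM (parental) and 6.50 RPM (sphere) in HCT15, and 27.1 RPM (parental) and 5.65 RPM (sphere) in HCT29. Summing both arms of each hairpin left every balance named above inside its own interval.

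Other miRNAs made from neighbouring hairpins show how far members of one cluster part in these libraries. Clusters were taken as single-copy hairpins within 10 kb of the next on one strand, each by its more abundant arm, and the spread as the highest minus the lowest log2 ratio of its members. In HCT15 spheres over parental the spread was 2.68 for the miR-183 cluster, against a median of 1.37 over 22 clusters, of which 6 were wider. In HCT29 spheres over parental it was 3.06 against a median of 2.04 over 15 clusters, of which 2 were wider. Between the parental libraries it was 3.78 against 1.31 over 17 clusters (3 wider), and between the sphere libraries 3.51 against 1.39 over 22 clusters (1 wider). Next to it in width in HCT15 spheres over parental stood miR-27a-3p with miR-23a-3p (2.55) and the cluster of miR-449b-5p, miR-449a and miR-449c-5p (3.29). In HCT29 spheres over parental, miR-27b-3p with miR-23b-3p (2.72) and miR-222-3p with miR-221-3p (3.09) stood beside it. Between the parental libraries its neighbours in width were the miR-200 family clusters, known to keep cells epithelial, at 3.32 for miR-200b-3p, miR-200a-3p and miR-429 and 4.56 for miR-141-3p with miR-200c-3p. Between the sphere libraries the next narrower was the cluster of miR-371a-5p, miR-373-3p and miR-372-3p (3.06), known from pluripotent stem cells. The narrowest spread in both lines was that of miR-130b-3p and miR-301b-3p, at 0.25 in HCT15 and 0.75 in HCT29, and the widest in HCT29 was that of miR-99b-5p, miR-125a-5p and let-7e-5p at 3.40. In HCT15 the widest, at 8.98, was a group of 14 miRNAs on chromosome 14. The highest minus the lowest of more members can only be as wide or wider, so clusters of different size are set side by side as a description. In HCT29 spheres over parental the place of the cluster rests in part on miR-96-5p, which has few reads. With at least 50 reads required, miR-96-5p leaves it there. The spread was then 2.35 against a median of 2.20, with 4 of 10 clusters wider. In both sphere over parental comparisons the place of the cluster rests on miR-182-5p being joined to it. Joining hairpins within 3 kb leaves miR-183-5p and miR-96-5p. Their spread was then 0.028 in HCT15 spheres over parental, the narrowest of 24 clusters, and 0.71 in HCT29, with 1 of 14 narrower. The 0.028 rests on 6 reads of miR-96-5p in HCT15 parental, and the interval of that difference was 0.354 to 2.30-fold. The pair stayed above the median between the lines, at 1.57 against 1.23 for parental libraries and 2.26 against 1.51 for sphere libraries.

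**Figure D5:**
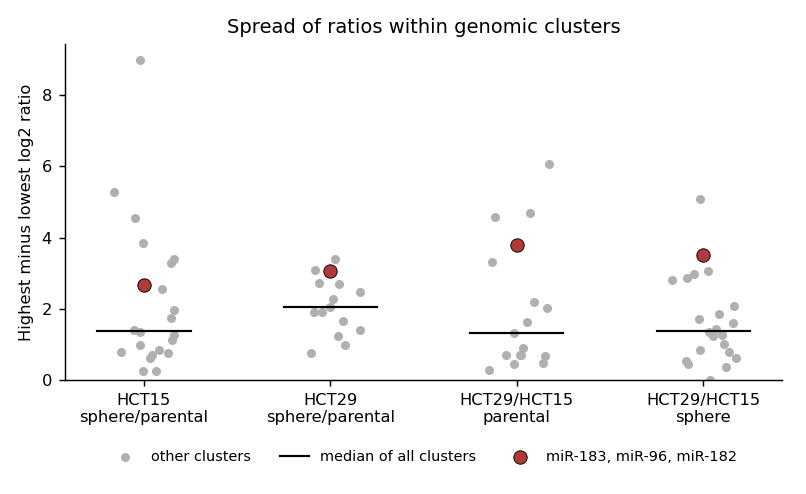
Highest minus lowest log2 ratio among the members of each genomic miRNA cluster in the 4 comparisons, with a point per cluster, a black line at the median of all clusters and the miR-183, miR-96 and miR-182 cluster in red. The red point lies above the median in all 4 comparisons and below at least 1 other cluster in each. With hairpins joined within 3 kb, miR-182-5p leaves the cluster. The spread is then below the median in both sphere over parental comparisons and above it in both comparisons between the lines.

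The likeness of patterns was measured as the Euclidean distance of log2(RPM + 1), centred on each miRNA's mean over the 4 libraries, among 222 miRNAs. miR-182-5p lay closest to miR-589-5p (0.42), miR-941 (0.52) and let-7e-5p (0.54), a member of the let-7 family of growth-restraining miRNAs. miR-96-5p lay closest to miR-335-3p (0.76), miR-21-3p (0.80), the lesser strand of the miR-21 hairpin, and miR-103a-3p (0.86). miR-183-5p lay closest to miR-30d-3p (0.83), miR-501-3p (0.85) and miR-4454 (1.10). In HCT15 parental these 3 were at 20.5, 27.3 and 13.6 RPM, where 1 read is worth 6.82 RPM, so their distances rest on few reads there. The members were not each other's nearest neighbours. miR-96-5p stood 19th of 221 from miR-183-5p (1.98) and miR-182-5p stood 54th (2.82), and distances over 4 libraries are a description only.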

How the data were processed

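Small RNA libraries (RNA fragments of 18 to 40 nucleotides) were made with TruSeq chemistry, per the labels' protocols. The authors' deposited values are RPM per mature miRNA, a unit that the file headers give for HCT15. For HCT29 the headers give the culture alone, and those deposited values were taken for RPM. They too move in steps of 1 read, but any scaling of reads by a library constant would do so. The unit is thus an assumption for HCT29, and the implied totals of its libraries rest on it. The genome build in the submitters' processing notes is hg19. For the aligner, its settings and the miRNA release: not given in the sources used here.

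The number of reads behind a value is the value over the worth of 1 read in that library. Of the nonzero values 100% were whole within 0.1 read. Ratios between libraries were taken as log2 of RPM + 1 for miRNAs with at least 10 reads in either library, and called at 2-fold. Folds are ratios of RPM without the added 1, with exact conditional binomial 95% intervals, except that the differences of sphere ratios between the lines have Wald intervals. Differences of a balance between libraries are odds ratios with exact conditional intervals. Nothing in the labels says that libraries came from separate cultures, so p-values measure the spread between these 4 libraries only. The test over 4 libraries was limma 3.58.1 with a mean-variance trend, for miRNAs that reached 10 reads in 2 or more libraries. edgeR 4.0.16 (quasi-likelihood, TMM) and DESeq2 1.42.0 on recovered reads were alternatives, and the scripts were tested on simulated data.

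Sequences come from RefSeq, in which 2281 of 2588 listed miRNAs matched, and hairpin positions from RefSeq and GENCODE 29. Positions are those of GRCh38, and hg19 was not used here. The cluster was proposed, and the marker lists chosen, with earlier results of these data known, though the rule for its members uses names alone. The miRNAs named were the 3 members, their 3′ arms, those sharing a seed, the 3 closest in pattern to each member, and the clusters of widest and narrowest spread and those next to the miR-183 cluster in spread. The ratio of both miR-183 arms was added after its values were seen, as were the single miRNAs of the gut epithelial list and the markers named as at 0.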

Additional observations from a re-analysis of the deposited data

Results flagged for a closer look

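All 3 members had sphere over parental log2 ratios of opposite sign in the lines with RPM as deposited, with 1 library per culture in each, and the difference was not tested. miR-183-5p stood at 2.21 in HCT15 and -1.20 in HCT29, where it was -0.033 with TMM and -0.31 with DESeq2 size factors. miR-96-5p stood at 2.18 in HCT15 and -1.91 in HCT29, where it was -0.76 with TMM and -1.04 with DESeq2 size factors. miR-182-5p stood at -0.47 in HCT15 and 1.15 in HCT29, but its sign was the same in both lines with TMM (0.14 and 2.32) and with DESeq2 size factors (0.055 and 2.04). The balance of miR-182-5p to miR-183-5p also differed in opposite directions, with a log2 difference of -2.68 in HCT15 and 2.35 in HCT29. These values do not depend on the library scaling, but how often other miRNA pairs turn in this way was not counted. Opposite signs were seen in 49.5% of the 188 miRNAs measured in both lines, so the sign alone does not set the members apart.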

How the results depend on the processing

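The balances between members and their differences between libraries stayed inside their main interval with a pseudocount of 0.1 or 10 RPM and with both arms summed. The log2 difference of miR-183-5p over miR-96-5p in HCT15, near 0 at 0.028, was -0.021 with both arms summed. Ratios of single members between libraries moved with the scaling, and the cause was not tested. With TMM scaling, the log2 ratios of miR-183-5p and miR-182-5p in HCT15 spheres over parental were 2.82 and 0.14, and those of miR-183-5p, miR-96-5p and miR-182-5p in HCT29 were -0.033, -0.76 and 2.32. Between the parental libraries TMM gave 3.62 for miR-183-5p and -0.16 for miR-182-5p, and between the sphere libraries 0.77 for miR-183-5p, -1.50 for miR-96-5p and 2.02 for miR-182-5p. The difference of the sphere ratio between the lines became -2.85 for miR-183-5p and 2.18 for miR-182-5p. With DESeq2 size factors the values in the same order were 2.73 and 0.055 in HCT15, -0.31 for miR-183-5p and 2.04 for miR-182-5p in HCT29, 3.71 and -0.074 between parental libraries, 0.66 for miR-183-5p and 1.91 for miR-182-5p between sphere libraries, and -3.05 and 1.98 between the lines. Scaled to the listed miRNA reads of each library, miR-183-5p and miR-182-5p stood at 1.999 and -0.68 in HCT15, and miR-182-5p at -0.58 and 1.26 between the parental and the sphere libraries. In HCT29 spheres 0 members were at least 2-fold lower with TMM and 1 with DESeq2 size factors, against 2. Chosen after seeing the data, the same scalings were applied to the cluster sum. Its ratio was 1.48, 1.40 and 0.838 (TMM, DESeq2, listed reads) in HCT15 spheres over parental, and 3.06 and 2.52 in HCT29 (TMM, DESeq2). It was 1.61, 1.71 and 1.21 between parental libraries and 3.33, 3.09 and 1.97 between sphere libraries. At least 2-fold higher in HCT15 and lower in HCT29 spheres were 10 miRNAs with TMM, against 18.

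Of all miRNAs, TMM called 51 lower in HCT15 spheres and 94 higher and 36 lower in HCT29 spheres, and DESeq2 size factors 56, 85 and 47, against 86, 52 and 81. Without a filter on low reads, 390 were higher and 227 lower in HCT15 spheres, 176 and 236 in HCT29 spheres, 156 and 289 between parental and 172 and 509 between sphere libraries, against 98 and 86, 52 and 81, 51 and 104, and 82 and 182. For culture, limma on TMM-scaled values and DESeq2 each passed 1 miRNA, higher in spheres, and the other fits 0. For line, limma passed 8 higher and 20 lower, against 2 and 3 with a pseudocount of 0.1 RPM, 5 and 12 with no filter, 5 and 5 in edgeR and 8 lower in DESeq2. Without the paired term for the other factor (no replicate block) it passed 2 and 5, and no member's call was different. The line difference of miR-96-5p turned from -0.25 to 0.27 with TMM values, 0.0075 in edgeR and 0.29 in DESeq2. Leaving out a library leaves no residual degree of freedom with both terms, so that fit was not run.

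With hairpins joined within 3 kb, miR-182-5p leaves the cluster, and the spread of the remaining pair was 0.028 in HCT15 and 0.71 in HCT29 spheres over parental, and 1.57 and 2.26 between the parental and the sphere libraries. With at least 50 reads, miR-96-5p leaves it in HCT29 spheres over parental, where the spread was 2.35 (median 2.20, 4 of 10 wider). It also leaves between the parental libraries, where the spread stayed 3.78 (median 2.11, 2 of 10 wider). The spread stayed 2.68 in HCT15 spheres over parental (median 1.73, 5 of 15 wider) and 3.51 between the sphere libraries (median 1.60, 1 of 15 wider). Depth limits miR-96-5p most, at 6 to 87 reads.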

Other observations

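Both strands of the MIR183 hairpin had reads in every library, and their ratio was looked at after the values were seen. In HCT15, miR-183-5p had 25.4 reads per read of miR-183-3p in the parental library (13.6 to 53.6) and 217 in the sphere library (135 to 373). In HCT29 it had 496 in the parental library (193 to 1821) and 827 in the sphere library (354 to 2548). In HCT15 the ratio was 8.54-fold higher in the sphere library (3.45 to 19.95), where miR-183-5p was 4.61-fold higher and miR-183-3p had a sphere over parental ratio of 0.541 (0.234 to 1.32). In HCT29 the difference was 1.67-fold (0.331 to 7.76), an interval that includes 1. The 3′ arm has 4 to 17 reads per library, and each group has 1 library.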
